A study of Oryza sativa with 24 samples.

Results

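Class III peroxidase genes of rice were followed through the first days of callus induction from the scutellum, in wild-type and in a line with weakened auxin perception. The genes were chosen by a rule on name and annotation, with earlier results of these data known. The rule took those named prx with a number or described as a peroxidase, leaving out ascorbate, glutathione and thioredoxin peroxidases and peroxiredoxins. This gave 147 of the 38866 genes in the table. Of these, 10 were not class III peroxidases by their annotation, namely 9 genes with a haloperoxidase or phosphatase domain and OsAPx6, whose name is that of an ascorbate peroxidase. All numbers below are for the other 137 genes, of which 104 carry a prx name.

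Class III peroxidases are secreted haem enzymes of plants that act mainly in the cell wall and the vacuole. They use hydrogen peroxide to oxidise phenolic compounds, by which lignin, suberin and wall proteins become cross-linked and the wall stiffens, and in another reaction cycle they can form reactive oxygen species that loosen the wall. Grasses carry large families of these genes, many in tandem arrays, and the enzymes are known in wall formation, elongation, wounding, defence and auxin breakdown. In tissue culture they are commonly assayed as markers of differentiation and stress.

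RNA came from scutella of Nipponbare (wild-type) and of 35Spro:OsMIR393b in the same background, which expresses the precursor of miR393 from the constitutive 35S promoter. miR393 targets transcripts of the auxin receptors OsTIR1 and OsAFB2. Seeds of both genotypes were cultured for 2, 5 or 7 d on callus-inducing medium (CIM), which is N6 medium with a synthetic auxin, or for 2 d on N6 medium without hormone as the control, giving 8 groups of 3 libraries. Each sample pooled the scutella of several seeds, how many independent transformants stood behind the line is not stated, and the sample labels call the tissue mature embryo. Because N6 libraries exist for 2 d alone, an effect of the medium at 5 and 7 d cannot be told apart from one of time in culture. The study calls the libraries of a group biological replicates, but whether they came from separate cultures is not stated, so p-values measure the spread between these libraries.

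Library totals ran from 50341636 to 70796624 counts. The targets of miR393 checked the labels. OsTIR1 ranged from 69.4 to 117 CPM over the 12 libraries of wild-type, and from 19.1 to 29.5 CPM over those of the line. For OsAFB2 the ranges were 96.2 to 156 CPM against 54.9 to 90.5 CPM, and neither pair of ranges overlapped. The library of the line at 5 d numbered 1 was the least like its group (mean correlation 0.937, against 0.9423 to 0.9706 for the others). Markers of the scutellum and embryo were present in every group, with 9 of 9 genes above 0. Their summed level in wild-type was 73.3 to 95.4 CPM on N6 and 1192 to 1343 CPM at 5 d on CIM. In the line the sum ranged from 88.8 to 400 CPM. These markers were sought as oleosins, EMP1 and 1-Cys peroxiredoxins, and single genes weigh heavily in the sum. Os1-CysPrxA alone went from a mean of 42.4 CPM on N6 to 884 CPM at 5 d in wild-type. Os1-Cys went from 12.5 CPM on N6 to 126 CPM at 7 d in the line. Storage protein genes of the endosperm, the neighbouring tissue, summed to 1683 to 2217 CPM in wild-type on N6 and to 733 to 936 CPM at 7 d. The part of these marker changes in the peroxidase results was not tested.

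Levels are given as CPM (counts relative to the library size as scaled by TMM), in the order of replicates 1, 2 and 3 where 3 values are listed. The highest genes over all libraries are ranked by FPKM, which also divides by transcript length. Sums, shares and other levels of different genes are in CPM and are not corrected for length. A gene was called higher or lower where the Benjamini-Hochberg adjusted p of edgeR's quasi-likelihood test was under 0.05 and the absolute log2 fold change was above 1. Of the 137 genes, 100 passed the filter on low counts and were tested. The other 37 were too low to test: 15 were at 0 in all 24 libraries, and none of the rest passed 0.591 CPM in any library. The tested genes include some that passed the filter only because 1 group was high, so their counts describe the family and are set beside the share of all 29710 genes tested that was called in the same comparison.

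The summed level of the family was similar on N6 and at 2 d on CIM and was lower in wild-type at 5 and 7 d. Summed over the 137 genes, wild-type libraries had 4285, 5698 and 5245 CPM on N6 and 6026, 6239 and 5502 CPM at 2 d on CIM. The sum was 1657, 2068 and 2031 CPM at 5 d and 1592, 1580 and 1643 CPM at 7 d, below every library on N6 or at 2 d. In 35Spro:OsMIR393b the sums were 4958, 5062 and 5258 CPM on N6 and 5860, 7099 and 5169 CPM at 2 d. They were still 4123, 4723 and 5336 CPM at 5 d and 4200, 3376 and 4685 CPM at 7 d. A single gene, prx20, made up 42.8% of the line's sum at 5 d and 52.7% at 7 d. Without prx20 the line had 2971, 2592 and 2549 CPM at 5 d and 2021, 1847 and 1937 CPM at 7 d, against 1655 to 2065 CPM and 1579 to 1634 CPM in wild-type. In bulk RNA, fewer cells that express a gene and less of its RNA per cell cannot be told apart.

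**Figure D1:**
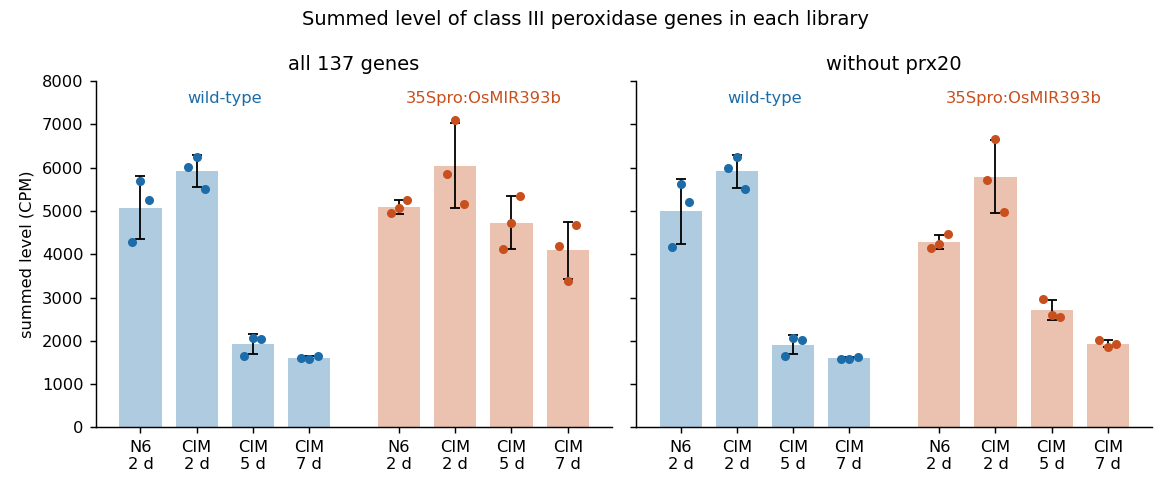
Summed CPM of the 137 class III peroxidase genes in each library (points), with the mean of each group (bars) and the SD of 3 libraries (error bars), for all genes on the left and without prx20 on the right. Wild-type falls to between 1580 and 2068 CPM at 5 and 7 d, while the sum of the line stays between 3376 and 5336 CPM with prx20 and between 1847 and 2971 CPM without it.

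A few genes carried a large part of the family's RNA. In each group the 5 highest genes held between 49.6% and 78.5% of the summed CPM. Per transcript length the highest over all 24 libraries were prx90 (mean 489 FPKM), prx20 (406 FPKM), prx86 (323 FPKM) and prx65 (129 FPKM). prx4, POX8.1, POX22.3 and prx109 followed with 128.6, 126.5, 107 and 93.8 FPKM. Altogether 22 genes reached a group mean of 100 CPM, whereas 9 of the tested genes stayed under 1 CPM in every group. Among tested genes, the highest wild-type group mean was on N6 for 52, at 2 d on CIM for 32, at 5 d for 5 and at 7 d for 11. In the line these numbers were 26, 45, 17 and 12.

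prx90 (Os06g0695500, IRGSP-1.0 chromosome 6 from 29051012 to 29054304) measured 951, 1096 and 1101 CPM in wild-type on N6 and 1318, 1095 and 987 CPM at 2 d on CIM. It had 193, 239 and 245 CPM at 5 d and 189, 235 and 244 CPM at 7 d, below all libraries of the earlier groups. In edgeR prx90 fell by 2.21 on the log2 scale at 5 d (SE 0.18, adjusted p = 1.19e-08) and by 2.23 at 7 d (SE 0.18, adjusted p = 8.59e-09). The line kept more of this transcript, with 512, 792 and 696 CPM at 5 d and 862, 604 and 673 CPM at 7 d after 1291, 1394 and 1137 CPM on N6. These falls of 0.93 and 0.84 on the log2 scale did not reach the minimum fold.

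prx86 (Os06g0547400, chromosome 6 from 20705378 to 20706934) fell in both genotypes. It had 767, 1181 and 1255 CPM in wild-type on N6, 613, 577 and 389 CPM at 2 d and 244, 214 and 245 CPM at 7 d. The line had 560, 580 and 734 CPM on N6 and 132, 86.5 and 174 CPM at 7 d. On the log2 scale prx86 fell by 2.19 in wild-type (SE 0.28, edgeR adjusted p = 2.57e-06) and by 2.26 in the line (SE 0.28, adjusted p = 3.46e-06) at 7 d, without overlap between libraries in either genotype. prx65 (Os05g0134400) was also lower at 7 d, from 269, 352 and 312 CPM to 44.1, 47.9 and 56.9 CPM in wild-type and from 229, 231 and 269 CPM to 67.7, 44.4 and 88.5 CPM in the line at 7 d.

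POX8.1 (Os07g0677100) and POX22.3 (Os07g0677200) lie next to each other on chromosome 7 and are known as rice peroxidase genes induced by bacterial infection. POX22.3 had 262, 236 and 187 CPM in wild-type on N6 and 19.5, 22.9 and 22.5 CPM at 7 d. It fell by 3.40 on the log2 scale (SE 0.37, edgeR adjusted p = 4.27e-07). In the line POX22.3 had 121, 202 and 247 CPM on N6 and still 199, 184 and 208 CPM at 5 d, and fell to 76.6, 30.6 and 75.1 CPM at 7 d (log2 fold change -1.64, SE 0.35, adjusted p = 0.000788). POX8.1 had 212, 278 and 181 CPM on N6, 374, 747 and 379 CPM at 2 d and 13.7, 15.8 and 29.1 CPM at 7 d in wild-type. Its level at 2 d did not pass the test (log2 fold change 1.16, SE 0.47, edgeR adjusted p = 0.0961), although all 3 libraries were above those on N6. The fall at 7 d did, at 3.52 on the log2 scale (SE 0.51, adjusted p = 1.27e-05).

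**Figure D2:**
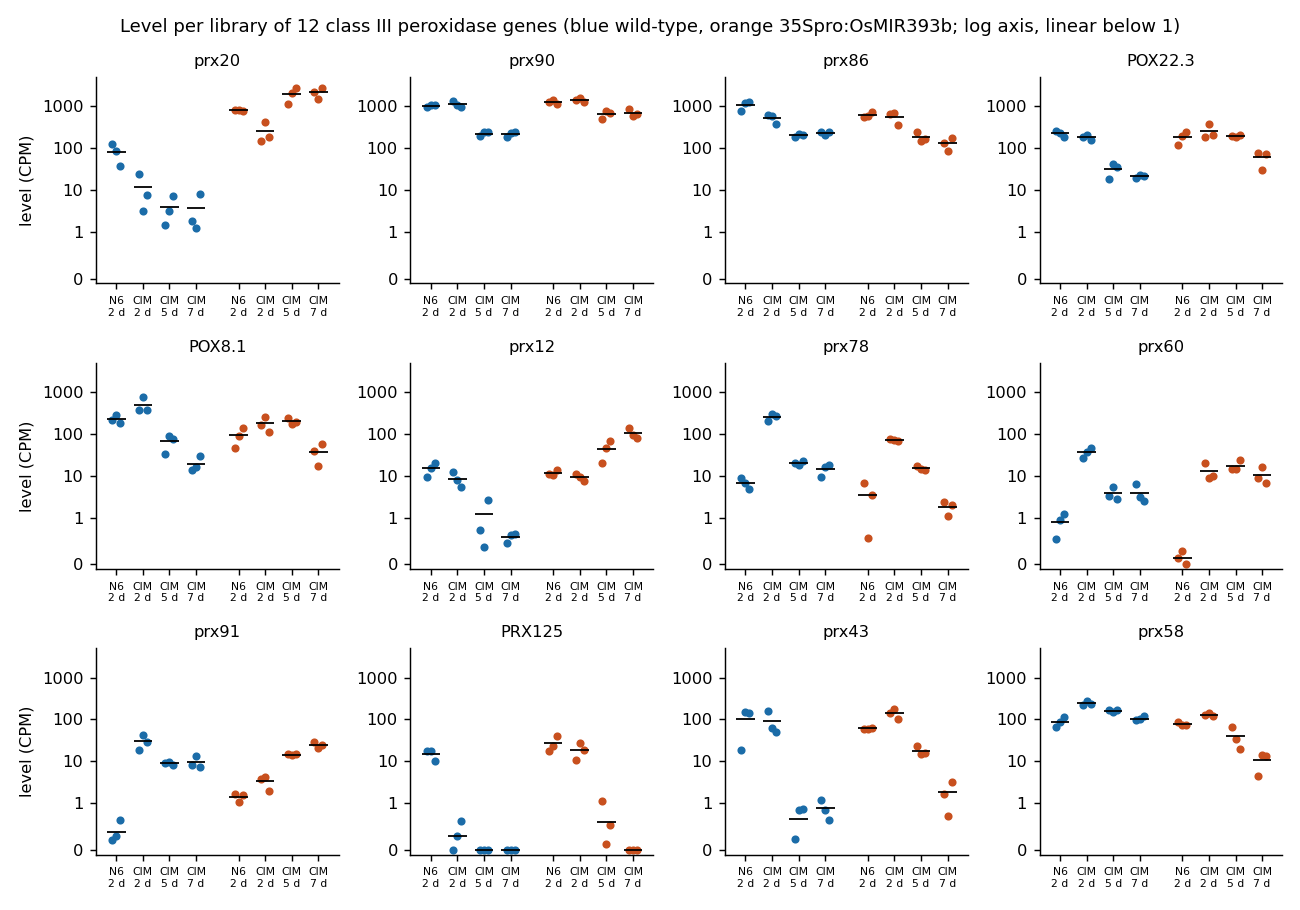
Level in CPM of 12 class III peroxidase genes in each library (points), wild-type in blue and 35Spro:OsMIR393b in orange, with group means as lines, on an axis that is logarithmic above 1 CPM and linear below. prx20 parts the genotypes most widely, with at most 8.37 CPM in any wild-type library at 7 d against at least 1530 CPM in the line. prx78, prx60 and prx91 were higher on CIM at 2 d than on N6 in every wild-type library, as the rule that named them required.

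At 2 d on CIM the wild-type comparison asked which peroxidases respond first to the medium. Of the tested genes 21 were higher and 12 lower, where 4.3% and 4.01% of all genes tested were called in these directions. Their median log2 fold change was -0.28, against 0.00 for all genes. The libraries of the groups did not overlap in 32 of the 33 called genes, as in 95.7% of all called genes. The lower count was the less steady one. It was 5 without N6 replicate 2, 7 without CIM replicate 2 and 6 without CIM replicate 3, while DESeq2 gave 22 higher and 19 lower.

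Among genes that reached a group mean of 5 CPM, the bar used for naming, the 4 with the highest fold change were low on N6. prx78 (Os06g0306300, chromosome 6 from 11559570 to 11560896) had 8.87, 6.81 and 4.79 CPM on N6 and 198, 303 and 273 CPM at 2 d on CIM, a log2 fold change of 5.24 (SE 0.55, edgeR adjusted p = 3.42e-06). It was down to 19.9, 17.8 and 22.2 CPM by 5 d, still above every N6 library. prx91 (Os06g0695400) went from 0.218, 0.294 and 0.634 CPM to 18.6, 43.3 and 28.6 CPM (log2 fold change 6.30, SE 0.42, adjusted p = 1.08e-08). This gene lies beside prx90 on chromosome 6, and unlike prx90 it stayed above its N6 level at 7 d, with 8.35, 13.1 and 7.31 CPM. prx60 (Os04g0688200) rose from 0.552, 0.945 and 1.22 CPM to 27.3, 37.9 and 46.1 CPM (log2 fold change 5.36, SE 0.60, adjusted p = 7.09e-06). prx25 (Os02g0237000) rose from 0.494, 0.852 and 1.65 CPM to 15.1, 10.4 and 10.3 CPM (log2 fold change 3.58, SE 0.59, adjusted p = 0.000347). All 4 had every CIM library above every N6 library, which the naming rule required. Root marker genes moved the same way at 2 d, with a sum over 7 genes of 193 to 280 CPM on N6 (4 above 0) and 597 to 845 CPM on CIM (5 above 0), and their part in these changes was not tested.

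More abundant genes also rose at 2 d in wild-type. prx4 (Os01g0270300) went from 159, 200 and 224 CPM to 386, 429 and 448 CPM, a log2 fold change of 1.11 (SE 0.18, edgeR adjusted p = 0.000353). prx58 (Os04g0656800) went from 65.9, 88.9 and 112 CPM to 222, 275 and 232 CPM (log2 fold change 1.45, SE 0.36, adjusted p = 0.00837). Both groups of libraries were apart in each gene.

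PRX125 (Os10g0109300, chromosome 10 from 655625 to 658866) had the deepest fall among genes above the same bar. It had 17.8, 18.1 and 10.1 CPM on N6 and 0, 0.307 and 0.62 CPM at 2 d on CIM, a log2 fold change of -5.61 (SE 0.89, edgeR adjusted p = 0.000897). It was at 0 in all 3 libraries at both 5 and 7 d. Against a floor of 12 counts in a library, this was at least 98.1-fold lower at 5 d and at least 102-fold lower at 7 d. prx20 (126, 87.5 and 38.8 CPM to 24.7, 3.28 and 7.66 CPM), Os01g0326300 (46.8, 76.8 and 76.8 CPM to 20.9, 18.5 and 14.7 CPM) and atp6 (59.7, 44.8 and 25.6 CPM to 13.2, 10 and 15.4 CPM) were called lower by smaller margins. The name atp6 belongs here to a peroxidase similar to Arabidopsis ATP6a. These 3 calls were not kept in all fits with 1 library fewer, although their direction was. Without replicate 2 or 3 at 2 d prx20 was no longer called (log2 fold changes -2.38 and -2.61), nor in a fit of only the groups compared (-2.82). Os01g0326300 was lost without N6 replicate 2 or without replicate 2 or 3 at 2 d (-1.78, -1.91 and -1.79), and atp6 in 5 of 6 such fits, all but that without N6 replicate 3 (between -1.93 and -1.45).

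At 5 d on CIM peroxidase genes were lower in wild-type more often than they were higher. Of the tested genes 50 were lower and 13 higher, where 14.6% of all genes tested were called lower and 12.6% higher, and 27.1% in either direction, and 58 of the 63 had libraries that did not overlap, beside 96.9% of all called genes. The median log2 fold change was -1.95, against 0.02 for all genes. At 7 d 50 were lower and 11 higher, beside 14.7% and 14.2% of all genes, with a median of -2.05 and 57 without overlap (96.9% of all called genes). These comparisons share their N6 libraries. In wild-type the embryo marker level given above was higher at both times. The summed level of the 7 root markers, 193 to 280 CPM on N6, was 106 to 143 CPM at 5 d and 94.4 to 111 CPM at 7 d (6 above 0 at both times). That of the 19 leaf markers, 35.7 to 75.8 CPM on N6, was 9.39 to 11.4 CPM and 11.3 to 15.3 CPM (13 above 0). The part of these levels in the fall was not tested.

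Among genes with a group mean of at least 5 CPM and no overlap, the deepest falls at 5 d were those of PRX125, prx43, prx128 and prx97. prx43 (Os03g0368300) had 18.8, 151 and 142 CPM on N6 and 0.236, 0.865 and 0.875 CPM at 5 d, a log2 fold change of -7.29 (SE 0.79, edgeR adjusted p = 4.02e-07). It was still at 1.22, 0.85 and 0.644 CPM at 7 d. prx128 (Os10g0536700) went from 8.52, 21.4 and 25 CPM to 0, 0.0786 and 0.309 CPM at 5 d and 0.423, 0 and 0 CPM at 7 d. These low levels leave its fold change loose, at -7.05 at 7 d (SE 0.96, adjusted p = 5.94e-06) and -13.24 without replicate 1 of that time, when both other libraries are at 0. prx97 (Os07g0104100) fell from 5.22, 6.02 and 12.5 CPM to 0, 0.0524 and 0.129 CPM (log2 fold change -6.99, SE 1.09, adjusted p = 3.17e-05). By the same rule RP-2 (Os01g0326100) was also among the deepest at 7 d, from 3.5, 7.65 and 7.65 CPM to 0.0265, 0.128 and 0.151 CPM.

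A small set went the other way. PRX49 (Os03g0563600) had 0.363, 0.589 and 1.1 CPM on N6, 12.7, 7.31 and 7.91 CPM at 5 d and 18.1, 22.5 and 11.9 CPM at 7 d, a log2 fold change of 4.68 at 7 d (SE 0.70, edgeR adjusted p = 1.77e-05). prx2 (Os01g0205900) had 0.799, 1.86 and 4.28 CPM on N6 and 26.9, 29.5 and 26.1 CPM at 7 d (log2 fold change 3.57, SE 1.03, adjusted p = 0.00674). prx116 (Os07g0694300) went from 0.509, 0.465 and 0.0618 CPM to 3.79, 6.2 and 6.06 CPM at 7 d (log2 fold change 3.94, SE 0.53, adjusted p = 5.26e-06). In all 3 genes each library at 7 d was above each N6 library, which the naming rule required for PRX49 and prx116. Os04g0498700 rose from 9.04, 9 and 6.94 CPM to 20.7, 27.6 and 40.2 CPM at 5 d (log2 fold change 1.82, SE 0.37, adjusted p = 0.000433). prx64 (Os04g0689000) varied widely between libraries. It had 0.0581, 0.697 and 1.69 CPM on N6 and 42.7, 37.9 and 11.3 CPM at 7 d (log2 fold change 5.24, SE 1.77, adjusted p = 0.0182). Its call was lost without N6 replicate 1 (4.68) or N6 replicate 2 (5.14).

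**Figure D3:**
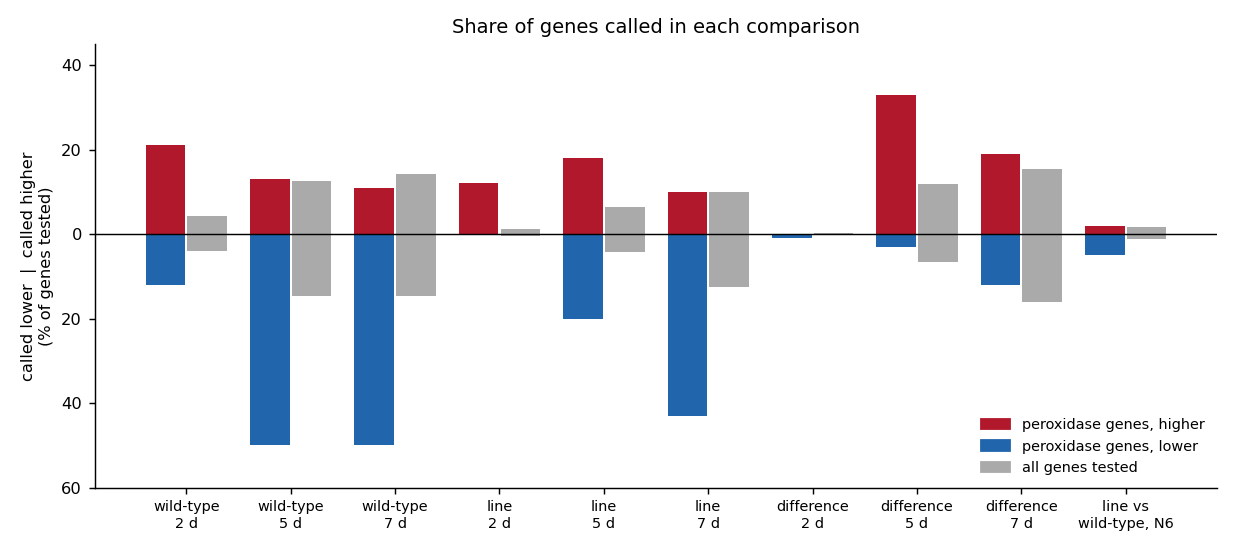
Share of genes called higher (upwards) and lower (downwards), in percent of genes tested, for the 100 tested class III peroxidase genes (coloured) and for all 29710 genes tested (grey) in each of the 10 comparisons. In wild-type 50% of the peroxidase genes were lower at 5 d and at 7 d, against 14.6% and 14.7% of all genes, and in the line 20% and 43% were lower at these times.

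In 35Spro:OsMIR393b the same comparisons gave fewer changes at 2 and 5 d. At 2 d 12 genes were higher and 0 lower (1.22% and 0.37% of all genes, 1.59% in either direction), by edgeR. At an unadjusted p under 0.05, 28 genes differed in either direction, and DESeq2 called 17 higher and 1 lower. At 5 d 18 were higher and 20 lower (6.35% and 4.21% of all genes), and at 7 d 10 were higher and 43 lower (10% and 12.5% of all genes). The medians were 0.18, -0.65 and -1.31. Without N6 replicate 2 of the line the number at 2 d was 7.

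Most peroxidase genes that rose at 2 d in the line also rose in wild-type, as did most of all genes called higher in the line. Of the 12 higher at 2 d in the line, 10 were also higher in wild-type, which is 83.3% of the line's genes and 47.6% of the 21 of wild-type, beside 74.8% and 21.1% over all genes tested. The differences between these shares were not tested. prx60 rose from 0.128, 0.288 and 0 CPM to 20.3, 8.84 and 9.89 CPM (log2 fold change 6.51, SE 0.68, edgeR adjusted p = 1.08e-05). prx78 rose from 6.75, 0.576 and 3.43 CPM to 77.4, 70.8 and 67.3 CPM (log2 fold change 4.33, SE 0.53, adjusted p = 7.12e-05), again without overlap, which the naming rule required. PRX46 (Os03g0369000) rose from 0.176, 0 and 0.374 CPM to 17.2, 15.2 and 5 CPM (log2 fold change 6.09, SE 1.23, adjusted p = 0.00969), a call lost without N6 replicate 1 (6.07) or replicate 2 (5.50).

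Of the genes lower in the line, 18 at 5 d and 34 at 7 d were lower in wild-type too. That was 90% and 79.1% of the line's genes and 36% and 68% of those of wild-type. Over all genes tested the corresponding shares were 64.6% and 34% of the line's lower genes and 18.7% and 28.9% of those of wild-type, and the difference was not tested. Genes called lower in wild-type and higher in the line numbered 2 at 5 d (prx12 and prx108) and 2 at 7 d (prx12 and prx62). PRX125 was not called lower in the line at 2 d, with 10.7, 27.3 and 18.2 CPM after 17.9, 23 and 40.5 CPM on N6. The difference between the line's change and that of wild-type at 2 d, 5.08 (SE 1.10, edgeR adjusted p = 0.0594), was not called either. In the line PRX125 was down to 1.15, 0.132 and 0.532 CPM at 5 d and to 0 in all libraries at 7 d, at least 126-fold lower than on N6. Pox (Os12g0112000) fell from 105, 114 and 129 CPM to 26.7, 11.2 and 13.9 CPM at 5 d (log2 fold change -2.75, SE 0.38, edgeR adjusted p = 4.62e-05). atp6 fell from 92.5, 72.8 and 94.7 CPM to 17.5, 7.74 and 11.9 CPM (log2 fold change -2.81, SE 0.54, adjusted p = 0.000935). PRX42 (Os03g0368000) went from 29.1, 28.9 and 28.4 CPM to 0.775, 0.436 and 0 CPM at 7 d (log2 fold change -6.15, SE 0.84, adjusted p = 1.07e-05). prx91 and prx60, both called higher in the line at 5 and 7 d, had 29, 20.9 and 24.5 CPM and 9.12, 16.3 and 6.7 CPM at 7 d. prx64 had 2.4, 316 and 9.56 CPM at 7 d, so that 1 library carries its log2 fold change of 7.45 (SE 1.95, adjusted p = 0.0042), and without that library it was 3.26 and not called. PRX49 had 24.8, 13 and 7.3 CPM in the line at 5 d, above 1.44, 0.318 and 0.975 CPM on N6 (log2 fold change 4.04, SE 0.68, adjusted p = 0.000305).

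prx20 (Os01g0962700, chromosome 1 from 42429502 to 42432547) had the widest gap between the genotypes of the genes named. In wild-type it had 126, 87.5 and 38.8 CPM on N6, 1.5, 3.19 and 7.19 CPM at 5 d and 1.82, 1.25 and 8.37 CPM at 7 d. In the line it had 815, 828 and 795 CPM on N6, 148, 432 and 188 CPM at 2 d, 1152, 2132 and 2787 CPM at 5 d and 2179, 1530 and 2748 CPM at 7 d. No library of the line overlapped a wild-type library on the same medium and day. In wild-type prx20 fell by 4.46 on the log2 scale at 7 d (SE 0.82, edgeR adjusted p = 0.000155). The line's change at 7 d, a log2 fold change of 1.41 (SE 0.72, adjusted p = 0.12), was not called, and the difference between the changes was 5.87 (SE 1.08, adjusted p = 0.000202). Its neighbours prx21 and prx22 did not share this level. prx21 was at 0 in all libraries and prx22 had group means of 1.46 to 11.1 CPM.

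Whether the line's change differed from that of wild-type was tested with an interaction term, where a positive value means that the line's log2 change was the higher of both. At 2 d 1 gene differed, prx91, where 0.252% of all genes tested were called in this direction and 0.283% in the other. prx91 had 3.84, 4.18 and 2 CPM in the line at 2 d, far under the 18.6 to 43.3 CPM of wild-type (difference -5.09, SE 0.52, edgeR adjusted p = 0.000194). Other settings called 1 to 8 genes here, with 8 from DESeq2, and at an unadjusted p under 0.05 edgeR found 21.

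At 5 d 33 genes had a positive difference and 3 a negative one, beside 11.8% and 6.5% of all genes tested. With library totals in place of TMM, which moved the median of all genes by 0.33 towards the negative, the numbers were 29 and 7. Leaving out the library least like its group (line, 5 d, replicate 1) gave 31 and 7, and with limma on log2(FPKM + 0.1) 27 and 9. The median difference was 1.21 over the peroxidase genes and 0.00 over all genes. prx43 had 23.4, 15.3 and 15.7 CPM in the line at 5 d where wild-type had 0.236 to 0.875 CPM (difference 5.54, SE 0.91, edgeR adjusted p = 0.000163). prx97 had 2.59, 2.62 and 0.656 CPM against 0 to 0.129 CPM (difference 6.12, SE 1.31, adjusted p = 0.00153), and prx20 differed by 5.72 (SE 1.08, adjusted p = 0.000538). The difference of PRX125, at 7.51 (SE 2.21, adjusted p = 0.0198), compares a line level of 0.132 to 1.15 CPM with 0 in wild-type, and with limma on log2(FPKM + 0.1) it was 1.25 and not called. The 3 negative genes were Os04g0498700, prx58 and prx25. Os04g0498700 had 11.9, 7.21 and 4.75 CPM in the line at 5 d, all under its 13.1, 14.2 and 13.8 CPM on N6 (difference -2.60, SE 0.52, adjusted p = 0.000838). prx58 had 66.9, 33.8 and 19.3 CPM in the line and 164, 150 and 165 CPM in wild-type at 5 d (difference -1.80, SE 0.50, adjusted p = 0.00961). prx25, named after its values were seen, differed by -2.36 (SE 0.77, adjusted p = 0.0242).

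At 7 d the differences went both ways, 19 positive and 12 negative among the tested genes, near the 15.5% and 16.1% of all genes. With library totals alone, under which the median of all genes was -0.60 in place of -0.07, 15 were positive and 15 negative. With limma on log2(FPKM + 0.1) the balance turned, to 15 positive and 19 negative. prx12 (Os01g0326000, chromosome 1 from 12499923 to 12504209) moved in opposite directions. In wild-type it fell from 9.24, 15.2 and 20.6 CPM on N6 to 0.463, 0.64 and 0.657 CPM (log2 fold change -4.67, SE 0.59, edgeR adjusted p = 2.33e-06). In the line it rose from 10.9, 10.6 and 14 CPM to 138, 92.3 and 81.7 CPM (log2 fold change 3.13, SE 0.52, adjusted p = 8.42e-05), and the difference of 7.80 (SE 0.79, adjusted p = 4.81e-07) was the largest of the positive genes named. prx62 (Os04g0688500) also fell in wild-type and rose in the line at 7 d, to 0.635, 0.221 and 0 CPM and to 27.2, 8.94 and 21.7 CPM (difference 6.80, SE 1.47, adjusted p = 0.000887). prx128 differed by 4.27 (SE 1.14, adjusted p = 0.00453), or 10.47 without wild-type replicate 1 at 7 d.

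Other genes were lower in the line at 7 d while wild-type held them. prx30 (Os02g0240100) had 5.7, 8.92 and 8.31 CPM in wild-type and 0.332, 0.0671 and 0.147 CPM in the line, after 6.21 to 10.4 CPM and 6.33 to 14 CPM on N6 (difference -5.61, SE 0.82, edgeR adjusted p = 2.01e-05). Os04g0498700 was the only gene called higher in wild-type and lower in the line at 7 d, with 20.1, 14.8 and 24.6 CPM against 4.12, 1.38 and 1.86 CPM (difference -3.73, SE 0.53, adjusted p = 1.47e-05). prx58 had 94.7, 102 and 119 CPM against 4.58, 14 and 13.7 CPM (difference -3.10, SE 0.51, adjusted p = 6.52e-05). prx130 (Os11g0112400) had 13.6, 11 and 11.2 CPM against 0.24, 1.31 and 2.94 CPM (difference -2.57, SE 0.69, adjusted p = 0.00502). In these 4 genes no wild-type library at 7 d was as low as any library of the line.

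**Figure D4:**
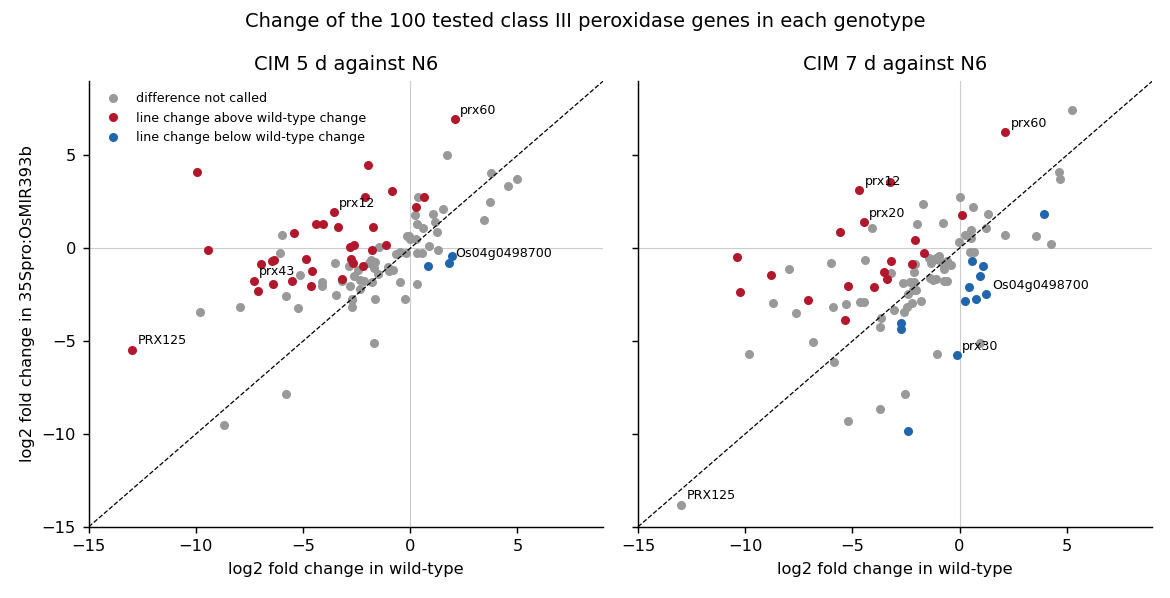
Log2 fold change of the 100 tested class III peroxidase genes on CIM against N6 in wild-type (horizontal) and in 35Spro:OsMIR393b (vertical), at 5 d on the left and 7 d on the right. Red genes had a line change above and blue genes one below the wild-type change by the interaction test, 33 and 3 at 5 d and 19 and 12 at 7 d, and the dashed line marks equal change. Fold changes of genes at 0 in a group, such as PRX125, depend on the fit.

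On N6 alone the genotypes differed in 7 genes, 2 higher and 5 lower in the line (1.79% and 1.18% of all genes tested, 2.97% in either direction). The higher ones were prx20, whose libraries are given above, with a log2 fold change of 3.27 (SE 0.77, edgeR adjusted p = 0.0142), and prx91. prx91 had 1.63, 1.11 and 1.61 CPM in the line and 0.218, 0.294 and 0.634 CPM in wild-type. The lower ones were prx108, prx16, prx60 and the overlapping pair Os08g0532600 and Os08g0532700. prx108 (Os07g0639400) had 1.63, 0.212 and 1.43 CPM in the line and 4.59, 7.5 and 4.14 CPM in wild-type (log2 fold change -2.31, SE 0.43, adjusted p = 0.00374). prx16 (Os01g0327400) had 15.4, 25.2 and 24.3 CPM in the line and 40.2, 55.1 and 47.2 CPM in wild-type (log2 fold change -1.14, SE 0.27, adjusted p = 0.0157). Os08g0532700 had 5.48, 3.79 and 3.95 CPM in the line and 10.2, 15.4 and 16.1 CPM in wild-type (log2 fold change -1.66, SE 0.36, adjusted p = 0.0082). prx91, prx60 and Os08g0532600 fell outside the naming rule and were named after their values were seen. In all 7 genes the libraries of the genotypes did not overlap, as in 95% of all called genes. Leaf marker genes were also higher in the line on N6, with a sum over 19 genes of 286 to 431 CPM (14 above 0) against 35.7 to 75.8 CPM (14 above 0), and their part in the result was not tested. Without single libraries the call of prx20 (2.88 without wild-type replicate 3) and that of prx16 (-1.02 without wild-type replicate 2 and -0.94 without line replicate 1) were lost, and without line replicate 1 the number was 4.

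Position on the chromosome was not used to choose the genes, and 73 of the 137 lay in 16 clusters of 3 or more with at most 5 genes from one member to the next. Neighbours could differ widely in level. The 7 genes from prx109 to prx115 on chromosome 7 (from 28660188 to 28692640), which include POX8.1 and POX22.3, summed to 621 CPM in wild-type on N6, 929 CPM at 2 d, 125 CPM at 5 d and 66.2 CPM at 7 d. All 4 tested genes of this cluster were lower at 7 d in wild-type, and 3 in the line. Over the tested family 50% and 43% were lower, and over all genes tested 14.7% and 12.5%. POXgX9 within it had group means of 2.52 CPM on N6 and 21.7 CPM at 2 d in wild-type, while POX5.1 and POX3006 were at 0 in all libraries.

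The 5 genes from PRX42 to prx48 on chromosome 3 (from 14436127 to 14509625) went from a sum of 155 CPM on N6 to 2.25 CPM at 7 d in wild-type, and 4 of 5 were lower. In the line their sum was 223 CPM at 2 d, 32.2 CPM at 5 d and 3.18 CPM at 7 d. PRX42 and prx43 were both low in N6 replicate 1 of wild-type. PRX42 had 8.17, 69.8 and 64.8 CPM there, beside the 18.8, 151 and 142 CPM of prx43. How far reads of near-identical copies are shared between them was not analysed here. On chromosome 5 (from 2010153 to 2082747) the 4 tested genes of prx65 to prx71 were all lower in wild-type at 5 and 7 d, and their cluster's sum was 446 CPM on N6 and 70.4 CPM at 7 d. In wild-type 50% of the tested family was lower at each of these times, beside 14.6% and 14.7% of all genes tested.

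Other clusters had few genes called lower in wild-type at 7 d. From prx50 to prx51 on chromosome 3 it was 0 of 3 tested, and from prx93 to prx90 on chromosome 6 it was 1 of 3. The cluster of prx59 to prx64 on chromosome 4 (from 35187443 to 35246736) also differed from those described above. Its sum in wild-type was 114 CPM on N6, 249 CPM at 2 d, 234 CPM at 5 d and 226 CPM at 7 d, most of it from prx59, with group means of 83.2, 191, 204 and 163 CPM. In the line the sum was 103 CPM on N6 and 269 CPM at 7 d, when prx59 was down to 24.7 CPM and prx61 was at 104 CPM. At 7 d 4 of its 6 genes were higher and 1 lower in the line, beside 10% higher and 43% lower over the tested family. The cluster of 6 genes from prx85 to prx81 on chromosome 6 and that of 5 genes around prx99 on chromosome 7 were close to silent, with group sums of at most 0.393 and 0.104 CPM.

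**Figure D5:**
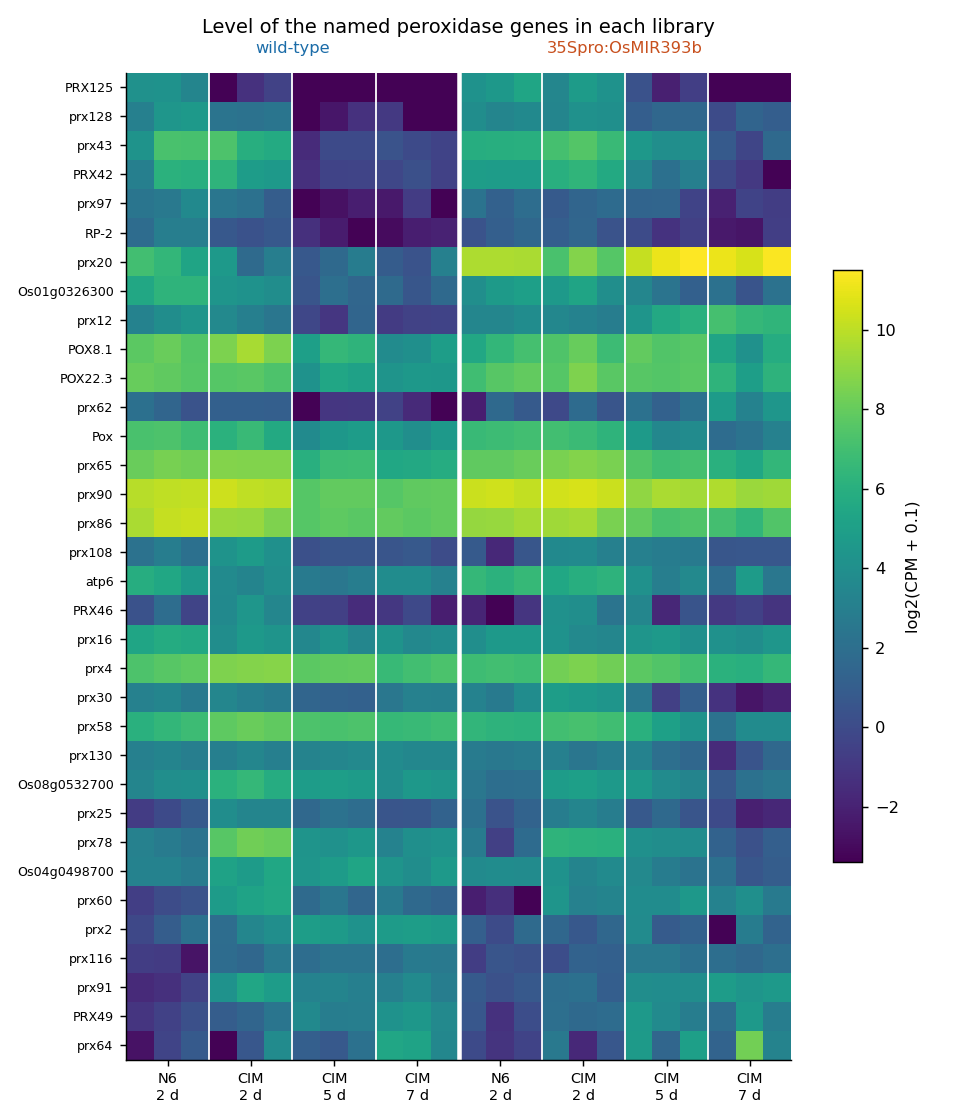
Level of the named class III peroxidase genes in each of the 24 libraries as log2(CPM + 0.1), with genes ordered by the difference between 7 d on CIM and N6 in wild-type, from the deepest fall at the top to the highest rise at the bottom. prx20 is bright in all 12 libraries of the line, the top rows darken at 5 and 7 d, and prx64 has 1 bright library of the line at 7 d (316 CPM).

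Genes that make or use hydrogen peroxide or phenolic substrates alongside these enzymes were counted from lists drawn from the annotation. The lists are read against the share of all genes tested with the same call. For a fall this share was 14.6% (wild-type, 5 d), 14.7% (wild-type, 7 d), 4.21% (line, 5 d) and 12.5% (line, 7 d). For a rise by 7 d it was 14.2% (wild-type) and 10% (line). For a positive genotype difference it was 11.8% (5 d) and 15.5% (7 d). No list was tested against these shares. Of 4 catalases, which break down hydrogen peroxide, wild-type had 3 lower at 5 and 7 d, the line had 1 lower, and 3 had a positive genotype difference at each of these times. CATC had group means of 324 CPM on N6 and 13.5 CPM at 7 d in wild-type and of 575 and 820 CPM in the line. Of 10 NADPH oxidases, which form superoxide at the plasma membrane, 1 rose and 2 fell by 7 d in wild-type, while 0 rose and 5 fell in the line. rbohD was the one that rose, its wild-type mean going from 1.07 to 10.7 CPM by 7 d, and it was lower in the line at 7 d (0.189 CPM). Of the superoxide dismutases, which turn superoxide into hydrogen peroxide, 9 of 10 were tested, with 0 higher and 3 lower in wild-type and 2 higher and 1 lower in the line at 7 d. Among 26 ascorbate, glutathione and thioredoxin-dependent peroxidases, of which 22 were tested, 2 rose and 3 fell by 7 d in wild-type, with 8 and 3 for the line.

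Laccases also oxidise phenolics in the wall. Their counts and those of the lists below are read against the shares given above for the hydrogen peroxide lists. None of these lists was tested against those shares either. Of 29 genes, 22 were tested, and 0 rose and 10 fell by 7 d in wild-type (median log2 fold change -2.40), with 1 and 8 for the line (-2.30). Among 45 genes of monolignol synthesis, which supplies the lignin precursors, 0 were higher and 6 lower in wild-type at 7 d (median -0.56 over 33 tested) and 3 and 8 in the line (0.35). Of 9 dirigent protein genes, which guide the coupling of lignans, 4 were tested. Os07g0643800 was the one called higher in both genotypes at 2, 5 and 7 d, with 7 d means of 8.79 CPM in wild-type, after 0.168 CPM on N6, and 14.7 CPM in 35Spro:OsMIR393b, after 0.177 CPM. Os07g0638500 was called lower, at 5 and 7 d in wild-type and at 7 d in the line. Its wild-type mean went from 9.48 CPM on N6 to 0.101 CPM at 7 d, and that of the line from 5.69 to 0.613 CPM.

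The library kit named in the labels does not mark strand, so reads of genes that overlap on opposite strands cannot be told apart. This touches 38 of the 137 genes. In most the partner was far lower, such as 18.8 CPM beside prx90 at 1411 CPM (highest group means). The pairs Os08g0532600 with Os08g0532700 and prx50 with Os03g0762300 consist of peroxidase genes on both strands, and their separate values are uncertain.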

How the data were processed

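RNA-seq of 24 rice libraries was deposited as 1 table of expected counts and FPKM per gene. According to the submitters' processing notes, the authors used Trimmomatic 0.36, HISAT2 2.1.0 and StringTie 1.3.4d with the genome build IRGSP-1.0. The study's methods also name UMI-tools, and whether it shaped the deposited counts is not given in the sources used here. The expected counts deposited by the authors are whole numbers in steps of about 4 (a median of 641.5 genes a library at 4 counts, against 202.5 at 3), so a floor of 12 counts a library was used as that of 3 fragments. The FPKM values deposited by the authors were used to rank the highest genes over all libraries and, as log2(FPKM + 0.1), in limma as an alternative. Depth limits low genes most, and totals are given in the report.

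The main test, after rounding, was that of edgeR 4.0.16 under R 4.3.3 (filterByExpr, TMM, quasi-likelihood F-test, 1 fit of 8 groups with 16 residual degrees of freedom). p-values were adjusted by Benjamini-Hochberg over all 29710 genes tested, and the SE is the log2 fold change divided by the root of F. Alternatives used limma 3.58.1, DESeq2 1.42.0, other scalings and filters, a replicate block and fits without each library. The fit was tested on simulated data. Python 3.11.15, pandas 2.3.3, NumPy 2.4.6 and Matplotlib 3.10.9 were used for summaries.

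The gene members and lists were chosen with earlier results of these data known. Named genes were the 6 with the highest mean CPM, and the called genes with the largest fold change in each direction and a group mean of at least 5 CPM, up to 4 in wild-type and in the genotype differences and up to 3 in the line and on N6. Outside the genotype differences their libraries also did not overlap. POX22.3, POX8.1 and prx2 were added because gene tables of the study hold them. Sequences were not used here.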

Additional observations from a re-analysis of the deposited data

Results flagged for a closer look

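The change on CIM differed between 35Spro:OsMIR393b and wild-type, by the interaction test of edgeR, in 1 of the 100 tested class III peroxidase genes at 2 d, 36 at 5 d and 31 at 7 d. Over all genes tested the shares were 0.535%, 18.3% and 31.6%, so the count at 7 d is that of the background and no result about the family. These results are listed because a test of the difference itself passed, and their part in any one tissue was not tested. At 2 d the gene was prx91 (difference of log2 changes, line minus wild-type, -5.09). At 5 d the named genes with a positive difference were PRX125 (7.51), prx97 (6.12), prx20 (5.72) and prx43 (5.54), and those with a negative one were Os04g0498700 (-2.60) and prx58 (-1.80). At 7 d prx12 (7.80), prx62 (6.80), prx20 (5.87) and prx128 (4.27) were positive, and prx30 (-5.61), Os04g0498700 (-3.73), prx58 (-3.10) and prx130 (-2.57) were negative. With 3 libraries in each group, single libraries far from their group were not tested for.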

How the results depend on the processing

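Of 198 alternative counts of called genes, 187 were within 1.5 times the reported one. For the genotype difference at 2 d (1 gene), DESeq2 gave 8, limma on FPKM 6, a fit of only the groups compared 4, counts divided by 4 also 4, library totals 2, and leaving out the wild-type library 1 at 2 d together with line library 1 at 5 d, chosen after seeing the data, 5. On N6 (7 genes) DESeq2 gave 13. Leaving out 1 library at a time gave 22 to 29 genes at 2 d, 56 to 60 at 5 d and 53 to 59 at 7 d in wild-type, and 7 to 14, 29 to 36 and 46 to 53 in the line. The genotype difference then had 1 to 2, 33 to 38 and 29 to 37 genes, and N6 had 4 to 7. The lowest value at 2 d in the line was without N6 replicate 2, and the 2 genes of the difference at 2 d came without that library or without wild-type replicate 1 at 2 d. The causes were not tested.

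Of 960 alternative values of named genes, 929 kept their call, 31 lost it and 0 changed sign. prx64 at 5 d in the line lost its call in 9 settings (4.14 to 5.33), and prx108 on N6 in a fit of only the groups compared (-2.33). Samples share replicate numbers in the labels, but same-numbered samples did not deviate together (mean correlation -0.00801, against 0.00401 for other numbers). With the replicate block the counts were 31, 61 and 58 in wild-type, 10, 36 and 54 in the line, 1, 37 and 30 for the genotype difference and 7 on N6. Depth limits genes near the floor, whose fold changes depend on the fit, as for PRX125 at 7 d in wild-type (-12.98 in edgeR and -6.67 in limma).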
